A study of Mus musculus with 21 samples.

Results

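Genes of cholesterol and fatty acid synthesis were followed in RNA sequencing of cultured mouse natural killer (NK) cells that lacked Ikaros (Ikzf1), Aiolos (Ikzf3) or both. The list named 37 genes by symbol. Of these, 34 were among the 11736 genes of the deposited table, and Srebf2, Tm7sf2 and Acat2 were not analysed here. RPKM is reads scaled to gene length and to library size. Genes were kept where 3 or more of the 15 libraries reached an RPKM of 1, which held for 33 of the 34. The one gene under the filter was Abca1.

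All groups were splenic NK cells grown in human interleukin 15 at 50 ng/ml. Cre only cells (4 libraries, S16 to S19) carried the Cre recombinase and no deletion. Ikzf1 KO (4 libraries, S12 to S15) and Ikzf3 KO cells (4 libraries, S1 to S4) came from mice with a conditional knockout of that gene in NK cells, and DKO cells (3 libraries, S5 to S7) carried both knockouts. The Cre driver and the age and sex of the mice are not given in the sources used here. The labels speak of biological replicates without saying how many mice gave each one, so p-values measure the spread between these samples.

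Cells make cholesterol from acetyl-CoA through mevalonate, squalene and lanosterol, and fatty acids from acetyl-CoA through malonyl-CoA. Both routes are switched on by the sterol regulatory element binding proteins (SREBPs), which sit in the endoplasmic reticulum bound to Scap and are held there by the Insig proteins while sterols are plentiful. When sterols fall, Scap carries SREBP to the Golgi, where proteases free its transcription factor domain. Oxysterol-activated liver X receptors (LXRs) act in the other direction on sterol load by inducing efflux pumps, and they also induce Srebf1 and Scd1. NK cells activated by cytokines are known to use SREBPs in their metabolic reprogramming.

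Recovered depths ran from 8.61 to 21.25 megareads per library in 11291 genes whose values came out as whole reads within 0.02 read. The deleted genes fell without reaching 0, from 61.9 to 19.1 RPKM for Ikzf1 in Ikzf1 KO cells and from 41.8 to 17.8 RPKM for Ikzf3 in Ikzf3 KO cells. In DKO cells Ikzf1 stood at 38.4, 25.3 and 27.2 RPKM in S5, S6 and S7, all above the 4 Ikzf1 KO libraries (0.63 ± 0.14 on the log2 scale, limma adjusted p = 0.0119), and Ikzf3 at a mean of 21.5 RPKM. These values cover whole genes, so reads of exons outside a deletion count in them. All 7 NK markers were in the table, with sums of 1235 to 2061 RPKM per library. Of 7 T cell markers, 5 were in the table, and their sum was 11.2 to 76.4 RPKM in Cre only, 15.6 to 54.1 in Ikzf1 KO, 18.4 to 45.4 in Ikzf3 KO and 120 to 273 in DKO libraries. Among these Cd3e reached 24.8 to 44.8 RPKM in DKO libraries, against at most 3.1 in Cre only libraries, and Cd3d 63.8 to 177, against at most 23.9. Cd3g, at 30.2 to 56.3 RPKM in DKO libraries, overlapped Cre only libraries S16 and S17 (46.9 and 49.1). Cd4 reached at most 1.3 RPKM in DKO libraries, against at most 0.523 in Cre only libraries. Cd8a reached at most 0.0554 in DKO libraries, less than in S16 and S17 (0.761 and 0.411). The part of T cell genes in the DKO results was not tested. The 1 of 5 B cell markers in the table summed to at most 2.23 RPKM and the 2 of 5 macrophage markers to at most 4.65 RPKM in any library, and no neutrophil, erythroid or stromal marker was in it. Bulk RNA does not tell fewer expressing cells from less RNA per cell.

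Promoter sequences show what the sterol enzymes share apart from their role. RefSeq windows of 250 bases before the start (build GRCm38.p6) were found for 26 of the 34 genes. The NF-Y box CCAAT, on either strand, is a common partner of SREBP sites. It lay in the windows of 20 of 26 genes, and of 13 of 13 sterol enzymes, against 37.5% of 27025 genes in the reference and 40.5% of those also in the table. A strict sterol regulatory element, TCACNCCAC on either strand, lay in 1 of 26 genes (Hmgcs1) against 1.22% of genes. The E-box CACGTG lay in 7 of 26 (6.86% of genes) and TGGGAA, the core bound by Ikaros family proteins, in 8 of 26 (24.1% of genes). A gene counts once, from any of its windows, and none of these motifs contains another. A match of letters is a description and not a bound site. The 160 bases before the start of 4 sterol genes are shown as examples picked by hand. These stretches lie outside the annotated gene and hold CCAAT, which the windows of other sterol enzymes hold too. Only Hmgcs1 of the 26 genes holds TCACNCCAC. Capitals mark TCACNCCAC and CCAAT on either strand (ATTGG is CCAAT on the other). They are Hmgcs1 (chr13:119690191-119690350, plus strand), Pmvk (chr3:89454381-89454540, plus strand), Mvd (chr8:122443423-122443582, minus strand) and Sc5d (chr9:42264301-42264460, minus strand).
Hmgcs1: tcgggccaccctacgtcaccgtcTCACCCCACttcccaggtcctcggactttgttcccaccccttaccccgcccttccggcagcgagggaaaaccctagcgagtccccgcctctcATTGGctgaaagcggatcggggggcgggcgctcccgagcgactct
Pmvk: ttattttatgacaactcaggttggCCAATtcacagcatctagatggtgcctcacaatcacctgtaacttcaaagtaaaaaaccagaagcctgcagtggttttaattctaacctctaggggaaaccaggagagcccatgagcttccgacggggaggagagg
Mvd: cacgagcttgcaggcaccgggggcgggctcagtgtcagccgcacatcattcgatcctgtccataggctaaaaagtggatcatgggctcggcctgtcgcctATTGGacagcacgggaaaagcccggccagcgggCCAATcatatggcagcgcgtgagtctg
Sc5d: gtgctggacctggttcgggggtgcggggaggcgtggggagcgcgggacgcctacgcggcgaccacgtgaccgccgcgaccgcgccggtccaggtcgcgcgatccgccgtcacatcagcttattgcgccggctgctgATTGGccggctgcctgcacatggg
Hmgcs1 holds both elements in this stretch, Mvd holds 2 CCAAT boxes, and Pmvk and Sc5d hold 1 each.

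In Cre only, Ikzf1 KO and DKO cells, but not in Ikzf3 KO cells, the sterol enzymes lay high or low together in particular libraries. The list holds 18 enzymes from mevalonate to cholesterol, of which 16 were measured and kept. Hmgcs1, the HMG-CoA synthase at the head of the mevalonate route, stood at 52.9, 56.7, 83.2 and 62.9 RPKM in Cre only libraries S16 to S19. Its values were 32.4, 33.0, 31.0 and 60.4 RPKM in Ikzf1 KO libraries S12 to S15, 78.1, 68.8, 60.1 and 54.6 in Ikzf3 KO libraries S1 to S4, and 19.1, 45.7 and 56.4 in DKO libraries S5 to S7. Library S15 lay apart from the other Ikzf1 KO libraries, and S5 from the other DKO libraries.

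The same libraries stood apart for nearly all of the 16 enzymes, and for most of the 11 fatty acid genes. S15 was the highest Ikzf1 KO library for 16 of 16, by a median log2 difference of 0.99, while it was the highest for 33.2% of all genes kept. S18 and S19 both lay above S16 and S17 for 16 of 16, by a median of 0.52 (28.7% of all genes). S5 lay below S6 and S7 for 14 of 16, by a median of -0.92 (43.1% of all genes). Among the 11 fatty acid genes S15 was the highest Ikzf1 KO library for 10, S18 and S19 both lay above S16 and S17 for 8, and S5 lay below S6 and S7 for 10. In Ikzf3 KO cells, S3 and S4 both lay above S1 and S2 for 7 enzymes (36.6% of all genes) and below them for 8 (36.6%). For the fatty acid genes they lay above for 3 and below for 8. No test is given for these counts, since libraries of a group share no label that parts them.

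**Figure D1:**
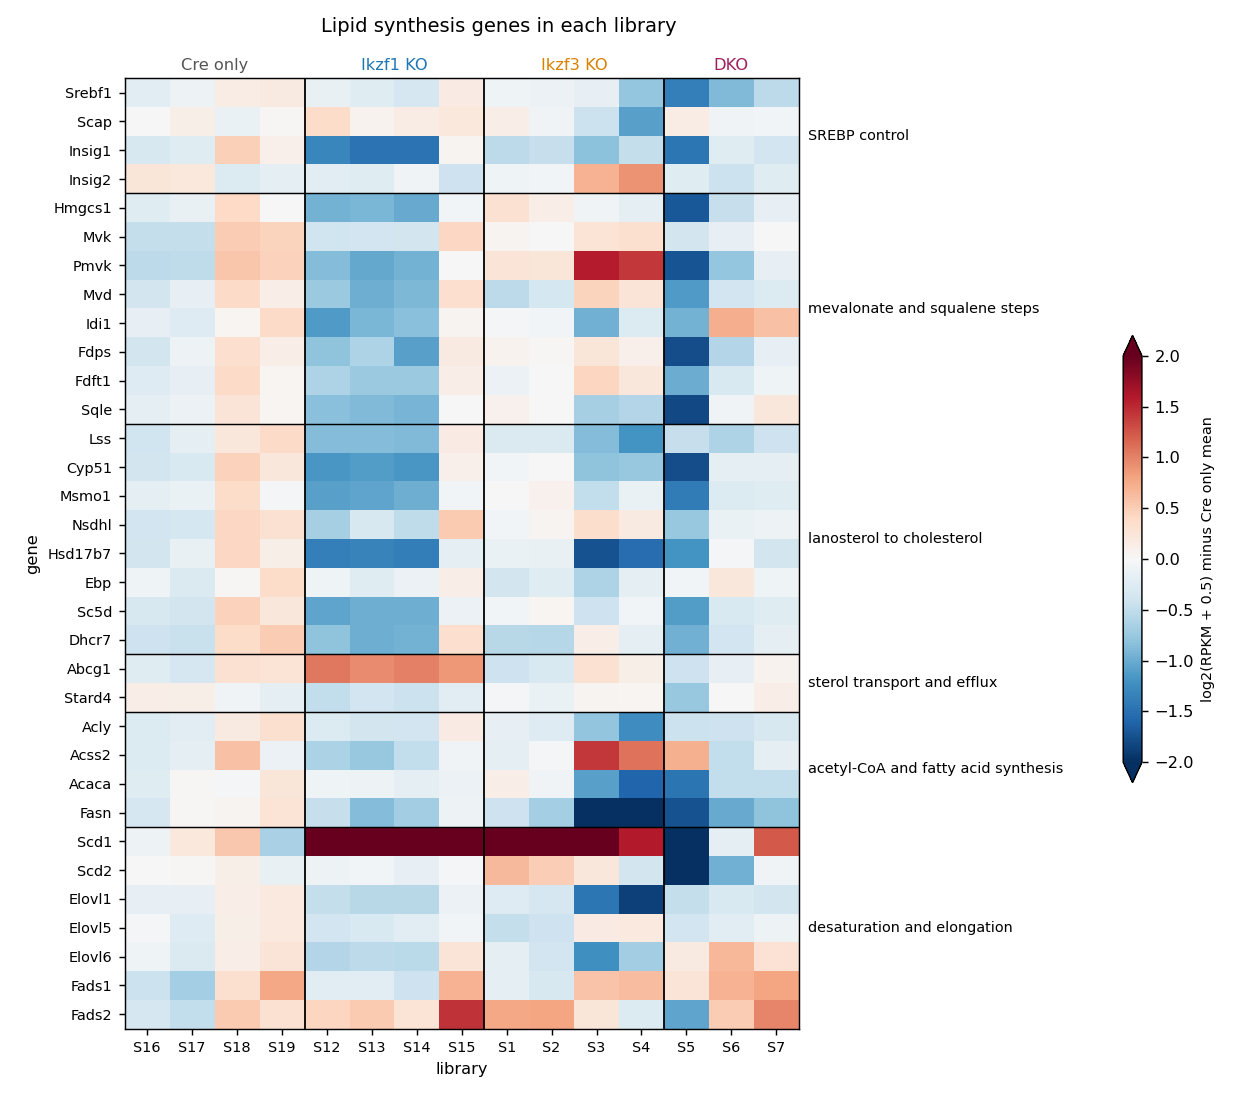
Heat map of the 33 genes kept (rows, grouped by role) in the 15 libraries (columns, grouped by genotype), coloured by the log2(RPKM + 0.5) difference from the Cre only mean, with colours ending at -2 and 2. The sterol enzymes are low together in S12 to S14 and S5 and near or above the Cre only mean in S15, S18 and S19.

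Taken as the mean log2 difference from Cre only cells over the 16 enzymes, S12, S13 and S14 lay at -0.84, -0.84 and -0.86 and S15 at 0.12. The DKO libraries S5, S6 and S7 lay at -1.14, -0.23 and -0.12. The Cre only libraries themselves spanned -0.32 (S16), -0.26 (S17), 0.35 (S18) and 0.23 (S19), and the Ikzf3 KO libraries -0.20 to -0.07. So 3 of 4 Ikzf1 KO libraries and 1 of 3 DKO libraries lay below every Cre only library. The mean over 13 cell cycle genes did not part S15 (0.78) from S12 to S14 (0.81 to 0.85), but parted S19 (0.68) from S16 to S18 (-0.51 to 0.00). The T cell gene Cd3e stood at 0.403 RPKM in S15 against 1.64 to 2.87 in S12 to S14, and at 0.237 and 0.24 in S18 and S19 against 3.1 and 2.5 in S16 and S17. The DKO libraries went the other way: S5, lowest for the sterol enzymes, was also lowest for Cd3e, at 24.8 RPKM against 42.4 and 44.8 in S6 and S7. The part of either in the split was not tested, and the labels name no batch. Among members, the median SD on the log2 scale was 0.421 in Ikzf1 KO and 0.480 in DKO cells, against 0.123 and 0.210 over all genes. In Ikzf3 KO and Cre only cells these pairs were 0.433 against 0.363 and 0.297 against 0.174.

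**Figure D2:**
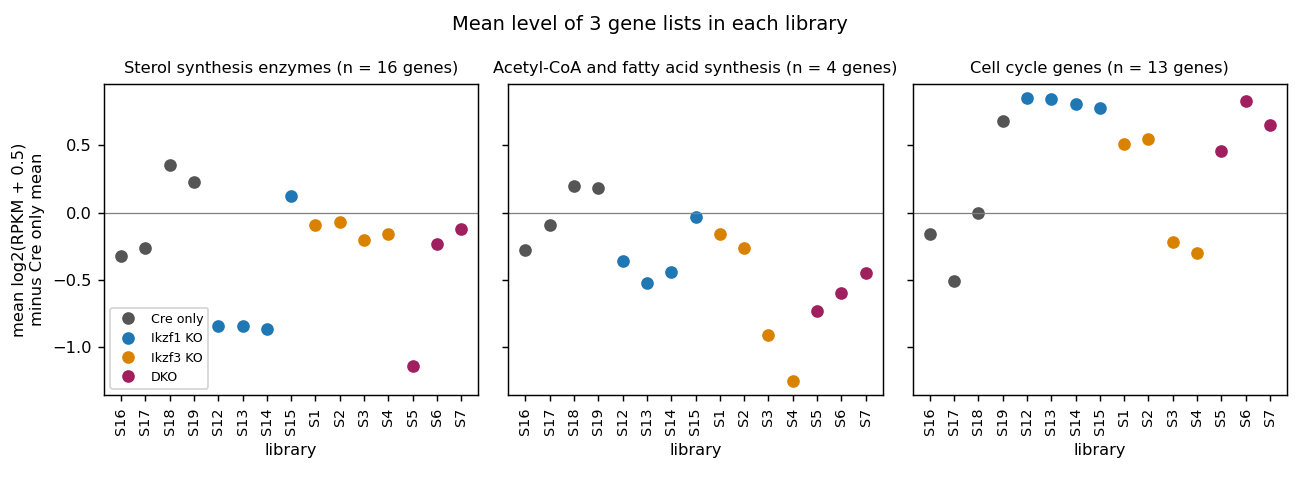
Mean log2 difference from Cre only cells (vertical axis) per library for the sterol enzymes, the 4 genes of acetyl-CoA and fatty acid synthesis and 13 cell cycle genes, with 1 point per library and libraries grouped by genotype. For the 16 sterol enzymes S15 lies at 0.12 above S12 to S14 at -0.86 to -0.84, and S5 at -1.14 below S6 and S7.

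With this spread, few members passed the test. Differences were fitted with limma on log2(RPKM + 0.5) over all 10032 genes kept and all 15 libraries, and a gene was called where its p, adjusted over all genes by the Benjamini-Hochberg method, lay below 0.05. In Ikzf1 KO against Cre only cells 1 of 33 members was higher, where 3.54% of all genes were, and 0 were lower (2.78% of all genes). In Ikzf3 KO against Cre only cells 1 was higher (6.30% of all genes) and 2 were lower (7.88%). In DKO against Cre only cells 0 were higher (8.06%) and 1 was lower (10.6%). By limma at an unadjusted p below 0.05, these 3 comparisons held 10, 8 and 6 members. The share of all genes at that level is not given, here or for the shorter lists below. No excess is therefore read from such counts. Against Cre only cells the share of members called lay below that of all genes in each direction. As 1 member makes up 3.03% of the 33, these gaps are of few genes, and no test is given for them.

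Between the knockouts 2 to 5 members were called. DKO against Ikzf1 KO cells gave 0 higher (3.76% of all genes) and 3 lower (3.72%). DKO against Ikzf3 KO cells gave 1 higher (10.2%) and 4 lower (9.85%), and Ikzf1 KO against Ikzf3 KO cells 1 higher (9.01%) and 1 lower (8.68%). The lower members made up 9.09% of the 33 in DKO against Ikzf1 KO cells and 12.1% in DKO against Ikzf3 KO cells. Both shares lie above that of all genes, but they rest on 3 and 4 genes. No test is given for these shares, and the comparisons share libraries, so their calls are not independent of each other.

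Most members had a negative change in Ikzf1 KO and DKO cells. Of 33, 29 lay below 0 in Ikzf1 KO against Cre only cells, with a median log2 change of -0.42 (all genes -0.01), and 26 in DKO against Cre only cells, with a median of -0.49. The DKO value leaned on S5: the mean over the 33 members was -1.0 in S5, -0.23 in S6 and -0.06 in S7, the median was -0.26 without S5, and it was 0.00 without S5, S15, S18 and S19. The Ikzf1 KO means were -0.45, -0.47 and -0.49 in S12 to S14 and 0.21 in S15. Ikzf3 KO against Cre only cells had 21 below 0 and a median of -0.13. Groups of libraries did not overlap for 3 members in Ikzf1 KO against Cre only cells (24.9% of all genes), namely Abcg1 and Scd1, which were higher, and Stard4, which was lower. They did not overlap for 4 in Ikzf3 KO against Cre only cells (18.2% of all genes), with Scd1 higher and Insig1, Fasn and Elovl1 lower. For DKO against Cre only cells the count was 7 (35.0% of all genes), all lower: Srebf1, Lss, Msmo1, Acly, Acaca, Fasn and Elovl1. Between the knockouts the counts were 4 for DKO against Ikzf1 KO (31.8% of all genes), 8 for DKO against Ikzf3 KO (24.2%) and 3 for Ikzf1 KO against Ikzf3 KO cells (25.6%).

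**Figure D3:**
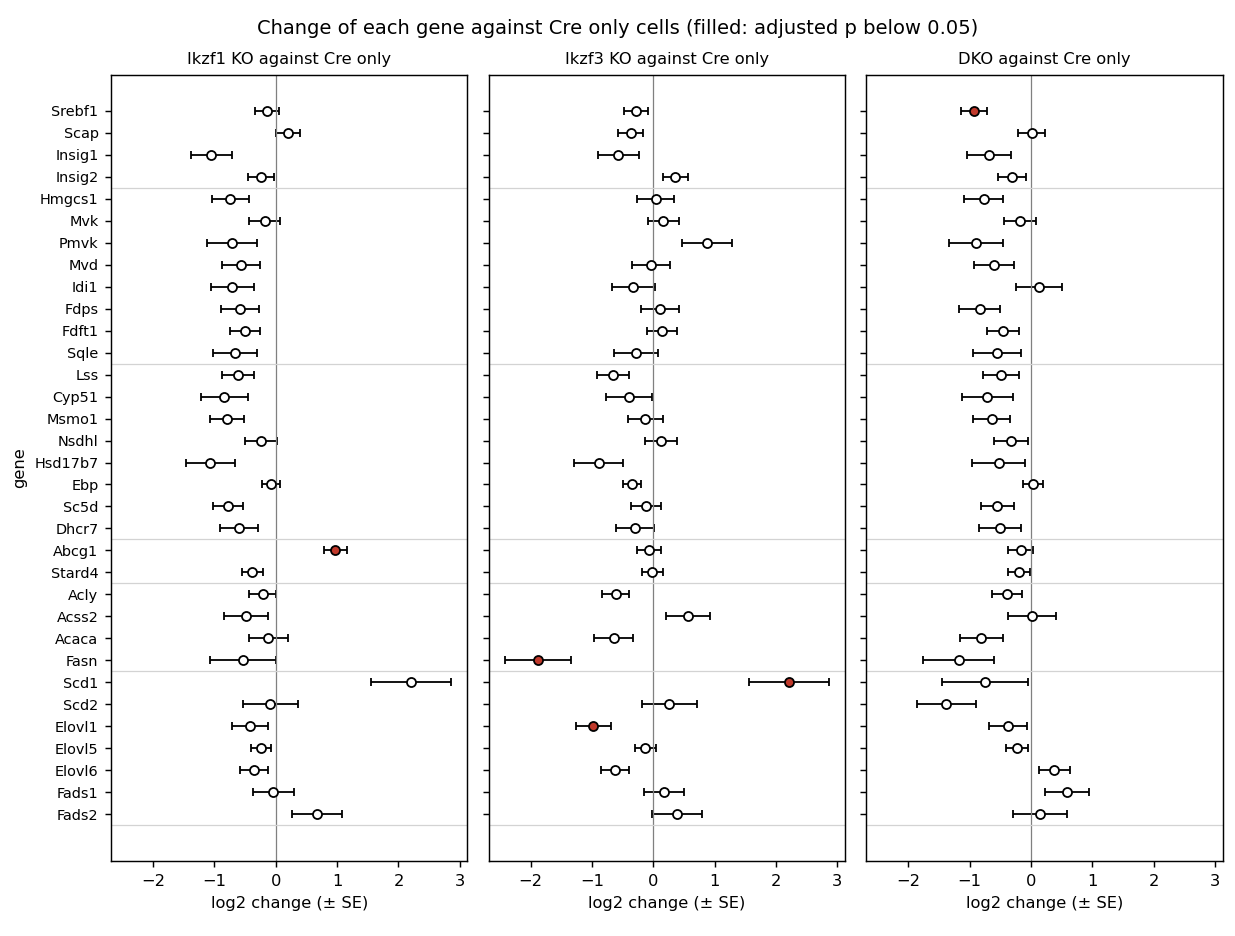
Log2 change of each of the 33 genes (vertical axis, grouped by role) in Ikzf1 KO, Ikzf3 KO and DKO cells against Cre only cells (horizontal axis), with standard errors, filled where the adjusted p is below 0.05. Abcg1 is filled in Ikzf1 KO cells, Fasn, Scd1 and Elovl1 in Ikzf3 KO cells, and Srebf1 in DKO cells.

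SREBP control came first among the roles. Srebf1 (ENSMUSG00000020538, chromosome 11, 60199089 to 60222581, minus strand, mm10) encodes SREBP-1, the form that mainly drives fatty acid genes. It stood at 42.5, 46.4, 55.5 and 56.4 RPKM in Cre only, 45.0, 41.9, 39.7 and 55.9 in Ikzf1 KO, 47.3, 45.8, 44.3 and 29.0 in Ikzf3 KO and 19, 26.7 and 34.4 in DKO libraries. All 3 DKO libraries lay below all Cre only and Ikzf1 KO libraries, while 1 Ikzf3 KO library (S4) fell among them. The means were 50.2 ± 6.84 (SD, n = 4) in Cre only and 26.7 ± 7.69 (SD, n = 3) RPKM in DKO cells, a log2 change of -0.93 ± 0.21 (SE; limma adjusted p = 0.00757). Srebf1 also fell against Ikzf1 KO cells (-0.79 ± 0.21, limma adjusted p = 0.0358) and Ikzf3 KO cells (-0.64 ± 0.21, limma adjusted p = 0.0453). The call against Cre only cells was lost without S18 and S19 (-0.76, limma adjusted p = 0.0753). The calls against Ikzf1 KO and Ikzf3 KO cells were lost without S5 (-0.57 and -0.42, limma adjusted p = 0.122 and 0.175) and without several other libraries, among them S6, S12, S13 and S14. Against Ikzf1 KO cells the call was also lost without S15, and against Ikzf3 KO cells without S1, S2, S3 or any 1 Cre only library.

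Insig1 and Insig2, which retain the SREBP-Scap complex, did not pass the test in any comparison with all libraries. Insig1, itself a classic SREBP target, read 30.5, 32.0, 53.2 and 41.1 RPKM in Cre only libraries and 15.3, 13.5, 13.4 and 39.5 in Ikzf1 KO libraries. In Ikzf3 KO libraries it read 26.3, 27.7, 21.4 and 27.5, and in DKO libraries 13.7, 32.2 and 29.0. Thus 3 Ikzf1 KO libraries lay at less than any Cre only library and S15 lay among them. The log2 change of Insig1 in Ikzf1 KO cells was -1.05 ± 0.33 (limma adjusted p = 0.0775), and without S15 it fell by 1.42 on the log2 scale (limma adjusted p = 0.00705). S15 is singled out here because it was the high library for this same gene. The p-value without S15 is therefore not independent of that choice, and no call is read from it.

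Insig2 read 10.6, 10.4, 7.31 and 7.71 RPKM in Cre only, 7.55, 7.37, 8.43 and 6.57 in Ikzf1 KO, 8.31, 8.49, 14.6 and 17 in Ikzf3 KO and 7.38, 6.47 and 7.44 in DKO libraries. S3 and S4 were the highest of all 15. Its largest difference was DKO against Ikzf3 KO cells, at -0.67 ± 0.23 (limma adjusted p = 0.0512). Scap, the escort protein, had means of 12.9 ± 0.947 (SD, n = 4) RPKM in Cre only, 14.9 ± 1.34 (SD, n = 4) in Ikzf1 KO, 10.4 ± 3.64 (SD, n = 4) in Ikzf3 KO and 13 ± 1.13 (SD, n = 3) in DKO cells, with no call.

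The mevalonate and squalene enzymes (8 kept) gave 1 called gene. Pmvk (ENSMUSG00000027952, chromosome 3, 89454541 to 89469013, plus strand), the phosphomevalonate kinase, read 10.3, 10.3, 22.2 and 20.7 RPKM in Cre only and 7.97, 7.04, 7.47 and 14.9 in Ikzf1 KO libraries. It read 17.8, 17.6, 45.3 and 40.4 RPKM in Ikzf3 KO libraries and 4.15, 8.51 and 13.2 in DKO libraries. The Ikzf3 KO libraries lay above all DKO and Ikzf1 KO libraries, with S3 and S4 far above S1 and S2. Pmvk was lower in DKO than in Ikzf3 KO cells (-1.75 ± 0.44, limma adjusted p = 0.0122) and in Ikzf1 KO than in Ikzf3 KO cells (-1.58 ± 0.41, limma adjusted p = 0.0184). Without S3 and S4 neither was called (-1.13 and -0.95, limma adjusted p = 0.103 and 0.177). The first call was also lost without S5 (-1.34) and the second without any of S3, S4, S12, S13 or S14.

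The other enzymes of this stretch are Hmgcs1, Mvk, Mvd, Idi1 (isopentenyl diphosphate isomerase), Fdps (farnesyl diphosphate synthase), Fdft1 (squalene synthase) and Sqle (squalene epoxidase, a rate-limiting step). In Ikzf1 KO against Cre only cells all 8 lay below 0, from -0.74 (Hmgcs1) to -0.18 (Mvk), and none was called, while 1 had an unadjusted limma p below 0.05. In DKO against Cre only cells 7 of 8 lay below 0, with 0 called and 2 at an unadjusted limma p below 0.05. Idi1 was the exception at 0.13, with 2.76, 9.95 and 8.99 RPKM in the DKO libraries. Its values in S6 and S7 were the highest of all 15 libraries and the one in S5 lay at the low end of the Ikzf1 KO range (2.36 to 6.02 RPKM). In Ikzf3 KO against Cre only cells 5 of 8 lay above 0, with 0 called and 0 at an unadjusted limma p below 0.05.

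From lanosterol to cholesterol (8 kept) no enzyme passed the test in any comparison with all libraries. The list runs over Lss, which closes the sterol rings, Cyp51, Msmo1, Nsdhl and Hsd17b7, which strip methyl groups from lanosterol, Ebp, Sc5d and Dhcr7, which makes cholesterol. All 8 lay below 0 in Ikzf1 KO against Cre only cells, with a median log2 change of -0.70 (5 at an unadjusted limma p below 0.05). In DKO against Cre only cells 7 of 8 did (median -0.52, 1 at an unadjusted limma p below 0.05), and in Ikzf3 KO cells 7 of 8 did (median -0.33, 3 of them). Counts at an unadjusted limma p below 0.05 in the other comparisons ran from 0 to 2. The largest mean was that of Cyp51, at 66 ± 18.8 (SD, n = 4) RPKM in Cre only and 38.5 ± 20 (SD, n = 4) in Ikzf1 KO cells, where S12 to S14 read 28.2, 29.1 and 28.3 and S15 read 68.6. Hsd17b7 read 7.4 and 7.3 RPKM in S1 and S2 and 2.07 and 2.5 in S3 and S4, a split within Ikzf3 KO cells that Cyp51 and Lss shared.

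The number of sterol genes called in Ikzf1 KO cells changed with 1 library. Without S15, 5 members were called in Ikzf1 KO against Cre only cells (5.56% of all genes tested): Abcg1 higher, and Insig1 (-1.42), Lss (-0.87), Msmo1 (-1.04) and Sc5d (-1.0) lower. Leaving out S5, S15, S18 and S19, which stood apart for the members themselves, is a choice made after the data were seen. Calls gained without S15, or without this set, are not independent of the values that set these libraries apart. Leaving out the set gave 7 called (5.81% of all genes): Abcg1 and Scd1 higher and Hmgcs1 (-0.76), Insig1 (-1.13), Msmo1 (-0.87), Sc5d (-0.66) and Stard4 (-0.57) lower. In Ikzf1 KO against Ikzf3 KO cells the same choice gave 13 called (10.7% of all genes), where all libraries gave 2, and all but Abcg1 were lower. In DKO against Ikzf1 KO cells it gave 8 called (5.58% of all genes), of which Idi1, Insig1, Msmo1, Sc5d, Sqle and Stard4 were higher and Abcg1 and Scd1 lower. It gave 2 called in DKO against Cre only cells (12.7% of all genes), Fads1 (1.30) and Fads2 (1.16), both higher, and Srebf1 was no longer called (-0.54, limma adjusted p = 0.175).

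Sterol transport and efflux held 2 of the 3 calls that all 24 alternatives kept. Abcg1 (ENSMUSG00000024030, chromosome 17, 31057675 to 31117988, plus strand) encodes a transporter that exports cholesterol and is a textbook LXR target. It read 8.54, 7.97, 12.8 and 12.4 RPKM in Cre only, 21.7, 20.0, 21 and 19 in Ikzf1 KO, 7.56, 8.21, 12.7 and 11 in Ikzf3 KO and 7.48, 9.1 and 10.7 in DKO libraries. The 4 Ikzf1 KO libraries, S15 included, lay above every other library, and the other 3 groups overlapped. Mean levels were 10.4 ± 2.51 (SD, n = 4) RPKM in Cre only and 20.4 ± 1.16 (SD, n = 4) in Ikzf1 KO cells, 1.96-fold higher, with a log2 change of 0.97 ± 0.19 (limma adjusted p = 0.00673). Abcg1 was lower in DKO than in Ikzf1 KO cells (-1.14 ± 0.20, limma adjusted p = 0.00285) and higher in Ikzf1 KO than in Ikzf3 KO cells (1.04 ± 0.19, limma adjusted p = 0.00205). Both of these calls held under all 24 alternatives, and the one against Cre only cells under 23, being lost without S16 and S17 (0.68, limma adjusted p = 0.103). In DKO against Cre only cells the change was -0.17 ± 0.20 (limma adjusted p = 0.612).

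Additivity was tested as the DKO change less both single changes, each against Cre only cells. This departure was called for 1 member above 0 (3.63% of all genes) and 2 below 0 (2.92%). For Abcg1 the departure was -1.06 ± 0.28 (limma adjusted p = 0.0339), with a call that was lost under 11 of 24 alternatives, among them leaving out S5 (-0.94) or S6 (-1.07). The call was likewise lost without any of S3, S4, S12, S13, S14, S16 or S17. Abca1, the other efflux pump, was scarcely read, at 0.35 ± 0.251 (SD, n = 4) RPKM in Cre only, 0.528 ± 0.131 (SD, n = 4) in Ikzf1 KO, 0.256 ± 0.107 (SD, n = 4) in Ikzf3 KO and 0.197 ± 0.0905 (SD, n = 3) in DKO cells, and was not tested. Stard4, a carrier of cholesterol between membranes, had means of 48.7 ± 5.51 (SD, n = 4) RPKM in Cre only and 37.3 ± 3.21 (SD, n = 4) in Ikzf1 KO cells. All 4 Ikzf1 KO libraries lay below all Cre only libraries, at -0.38 ± 0.17 with a limma adjusted p of 0.216.

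In fatty acid synthesis, Fasn (ENSMUSG00000025153, chromosome 11, 120805846 to 120824547, minus strand), the fatty acid synthase, read 62.0, 79.2, 80.9 and 94.1 RPKM in Cre only and 56.9, 42.8, 47.8 and 72.9 in Ikzf1 KO libraries. It read 58.5, 48.7, 8.21 and 7.87 RPKM in Ikzf3 KO and 22.9, 38.7 and 44.8 in DKO libraries. All Ikzf3 KO and all DKO libraries lay below all Cre only libraries, S3 and S4 far below the rest. Fasn was lower in Ikzf3 KO than in Cre only cells by a log2 change of -1.88 ± 0.54 (limma adjusted p = 0.0339), and this rested on S3 and S4, since without them it was -0.55 (limma adjusted p = 0.199). The call was also lost without S3 or S4 alone (-1.44 and -1.42) and without any 1 Cre only library. In DKO against Cre only cells it was -1.18, with a limma adjusted p of 0.178, and without S3 and S4, which lie in neither group but enter the residual spread, the same difference had a limma adjusted p of 0.00204.

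The other 3 genes of this step had no call. Acly, which splits citrate into acetyl-CoA, had means of 97.3 ± 20.1 (SD, n = 4) RPKM in Cre only and 72.9 ± 3.3 (SD, n = 3) in DKO cells, and all DKO libraries lay below all Cre only libraries (-0.39 ± 0.24, limma adjusted p = 0.284). Acaca, the acetyl-CoA carboxylase that commits carbon to fatty acids, read 3.06, 3.78, 3.66 and 4.47 RPKM in Cre only and 1.03, 2.49 and 2.49 in DKO libraries, again without overlap (-0.81 ± 0.35, limma adjusted p = 0.122). Acss2, which makes acetyl-CoA from acetate, read 2.54 and 2.94 RPKM in S1 and S2 and 8.8 and 6.89 in S3 and S4, opposite to Fasn in the same libraries.

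Desaturation carried the widest differences among all 33 genes. Scd1 (ENSMUSG00000037071, chromosome 19, 44394455 to 44407879, minus strand) encodes stearoyl-CoA desaturase, which makes oleate and palmitoleate and is a target of both SREBP-1 and LXR. It read 5.41, 6.8, 8.69 and 3.54 RPKM in Cre only, 26.1, 30.9, 26.4 and 31.7 in Ikzf1 KO, 36.8, 32.9, 30.3 and 18.5 in Ikzf3 KO and 0.153, 5.01 and 14.4 in DKO libraries. All 8 libraries of the single deletions lay above all 7 of Cre only and DKO cells. The mean rose from 6.11 ± 2.18 (SD, n = 4) RPKM in Cre only cells to 29.6 ± 7.89 (SD, n = 4) in Ikzf3 KO cells, 4.85-fold, with a log2 change of 2.21 ± 0.65 (limma adjusted p = 0.0380). In Ikzf1 KO cells the mean was 28.8 ± 2.91 (SD, n = 4) RPKM and the log2 change 2.21 ± 0.65 too, with a limma adjusted p of 0.0591. DKO cells had a mean of 6.51 ± 7.22 (SD, n = 3) RPKM and a change of -0.75 ± 0.70 against Cre only cells (limma adjusted p = 0.509).

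Scd1 was lower in DKO than in Ikzf1 KO cells by -2.95 ± 0.70 (limma adjusted p = 0.0188) and than in Ikzf3 KO cells by -2.96 ± 0.70 (limma adjusted p = 0.00897). Each of these was lost under 1 of 24 alternatives, the fit to the compared groups alone (limma adjusted p = 0.0538 and 0.0982). The departure from additivity was -5.16 ± 0.96 (limma adjusted p = 0.00594) and was called under all 24 alternatives, between -6.15 and -3.80. The size rested on S5, without which the departure was -3.90 and the difference from either single deletion was -1.69. Without S5, which lies in neither group but enters the residual spread, the rise in Ikzf1 KO cells was called (2.21 ± 0.31, limma adjusted p = 0.000856). S5 stood apart for Scd1 itself, so that call is not independent of leaving it out. The rise in Ikzf3 KO cells lost its call under 13 alternatives, including a pseudocount of 0.1 and the removal of any 1 of S3, S4, S12 to S14 or S16 to S19, and its log2 change stayed between 1.99 and 2.48.

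**Figure D4:**
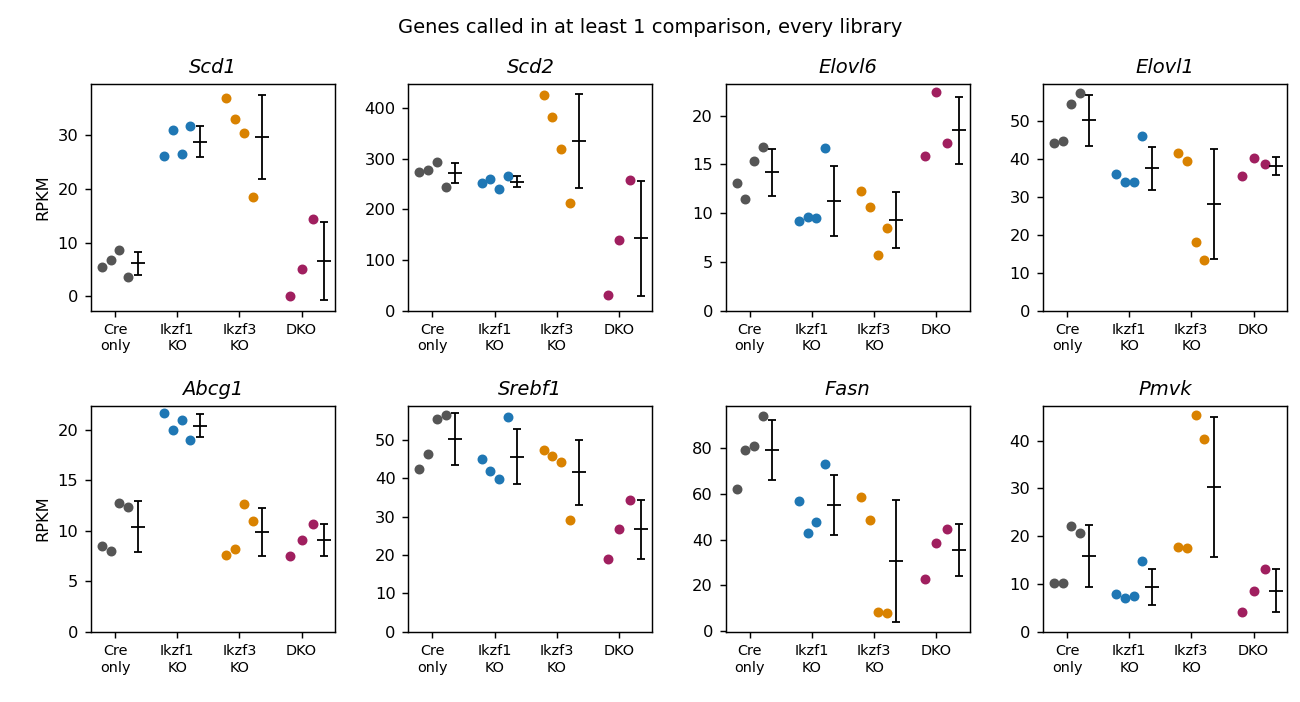
RPKM (vertical axes) of the genes called in at least 1 comparison, with a point per library, grouped by genotype, and the group mean with its SD beside the points. Scd1 is high in both single deletions and low in Cre only and DKO cells, and Abcg1 is high in Ikzf1 KO cells alone.

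Scd2, a paralog of Scd1 on the same chromosome (ENSMUSG00000025203, chromosome 19, 44293674 to 44306864, plus strand), was read at far higher levels. Its values were 273, 277, 294 and 245 RPKM in Cre only, 253, 260, 240 and 267 in Ikzf1 KO, 426, 382, 319 and 212 in Ikzf3 KO and 31, 139 and 259 in DKO libraries. S5 was the lowest of all libraries for both paralogs, while S7 reached the Ikzf1 KO range for Scd2. Scd2 was lower in DKO than in Ikzf3 KO cells (-1.63 ± 0.48, limma adjusted p = 0.0288), but without S5 the difference was -0.77 (limma adjusted p = 0.0645), and the call was also lost without S3. Neither paralog came out as whole reads in every library, so their read numbers are not given. The same held for Abcg1, Fads1, Fads2 and Fads3. Reads shared between the paralogs could be split by the counting, which was not tested.

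Among the elongases, Elovl6 (ENSMUSG00000041220, chromosome 3, 129532355 to 129638495, plus strand), which lengthens palmitate to stearate and so feeds Scd1, read 13.1, 11.4, 15.4 and 16.8 RPKM in Cre only and 9.21, 9.6, 9.49 and 16.7 in Ikzf1 KO libraries. It read 12.3, 10.6, 5.68 and 8.52 RPKM in Ikzf3 KO and 15.9, 22.4 and 17.2 in DKO libraries. The DKO libraries lay above all Ikzf3 KO libraries, and only S15 and S19 of the remaining 8 lay above the lowest DKO library. Elovl6 was higher in DKO than in Ikzf3 KO cells (1.00 ± 0.25, limma adjusted p = 0.0131) and departed from additivity by 1.35 ± 0.35 (limma adjusted p = 0.0325). The first call was lost without S6 (0.86) or without S3 and S4 (0.66). The second was lost without any of S6, S7, S12, S13, S14, S16, S18 or S19, with log2 values from 1.01 to 1.55 over all alternatives. The direction of Elovl6 and that of Scd1 in this test were opposite.

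Elovl1 (ENSMUSG00000006390, chromosome 4, 118428093 to 118432953, plus strand), which makes very long chain fatty acids, read 44.2, 44.8, 54.5 and 57.6 RPKM in Cre only, 36.0, 34.1, 34.0 and 46.1 in Ikzf1 KO, 41.6, 39.5, 18.1 and 13.3 in Ikzf3 KO and 35.6, 40.3 and 38.6 in DKO libraries. All Ikzf3 KO libraries were below all Cre only libraries, and S3 and S4 were lowest, as for Fasn. The log2 change was -0.98 ± 0.29 (limma adjusted p = 0.0378), and -0.30 without S3 and S4 (limma adjusted p = 0.202). The call was also lost without S3 (-0.82), S4 (-0.68), S7, any of S12 to S14 or any 1 Cre only library. Elovl5, which lengthens polyunsaturated fatty acids, ranged from 47.5 to 76.0 RPKM over all libraries, with both ends in Ikzf3 KO cells, and was not called.

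Fads1 and Fads2, the delta-5 and delta-6 desaturases of polyunsaturated fatty acids, were not called with all libraries. Fads2 read 25.2, 22.7, 46.7 and 39.9 RPKM in Cre only and 43.6, 46.6, 39.1 and 88.3 in Ikzf1 KO libraries. S15 was the highest of the 15 libraries for it. Fads1 had means of 15.7 ± 7.53 (SD, n = 4) RPKM in Cre only and 22.2 ± 4.25 (SD, n = 3) in DKO cells, at 0.58 ± 0.36 (limma adjusted p = 0.289).

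A further list of 42 genes of the same pathways that are not members was read for comparison, of which 27 were kept. In Ikzf1 KO against Cre only cells 1 rose (3.54% of all genes) and 0 fell (2.78%). In Ikzf3 KO cells 2 rose (6.30%) and 0 fell (7.88%), and in DKO cells 3 rose and 3 fell. These 3 are 11.1% of the 27 in each direction, close to the 8.06% higher and 10.6% lower of all genes. DKO against Ikzf1 KO and DKO against Ikzf3 KO cells each gave 1 rise and 0 falls (3.70% of the 27, against 7.48% and 20.1% of all genes). Ikzf1 KO against Ikzf3 KO cells gave 2 rises and 3 falls (18.5%, against 17.7% of all genes). The departure from additivity gave 0 calls by limma (6.55% of all genes), with 2 at an unadjusted p below 0.05. Fads3, which lies beside Fads1 and Fads2 and encodes a sphingolipid desaturase, read 0.0846, 0.125, 0.182 and 0.168 RPKM in Cre only, 0.988, 0.859, 0.861 and 2.42 in Ikzf1 KO, 0.309, 0.279, 0.705 and 0.227 in Ikzf3 KO and 5.24, 5.52 and 3.6 in DKO libraries. The groups did not overlap, and the order was Cre only, Ikzf3 KO, Ikzf1 KO and DKO. Fads3 reached an RPKM of 1 only in S15 and the 3 DKO libraries, so it passed the filter through libraries where it was high. Its order and calls are thus not independent of that filter. Its log2 changes against Cre only cells were 1.40 ± 0.24 in Ikzf1 KO (limma adjusted p = 0.00335) and 3.03 ± 0.26 in DKO cells (limma adjusted p = 2.86e-06).

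Other genes of the further list had smaller changes in DKO cells. Nr1h2, which encodes LXR beta, fell by 0.58 on the log2 scale (limma adjusted p = 0.0261). Soat1, which esterifies cholesterol for storage, rose by 0.43 (limma adjusted p = 0.0106) and by 0.32 in Ikzf3 KO cells (limma adjusted p = 0.0417). Elovl7 rose by 2.54 in DKO cells (limma adjusted p = 0.0180) and by 2.44 in Ikzf3 KO cells (limma adjusted p = 0.0210), where S1 and S2 read 0.923 and 0.908 RPKM and S3 and S4 read 11.5 and 14.7. Elovl7 too reached an RPKM of 1 in no Cre only library, so it passed the filter through knockout libraries.

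Between the single deletions, Acsl4 (-0.81), Ggps1 (-0.42) and Mbtps2 (-0.42) were lower and Mbtps1 (0.52) and Fads3 (0.97) higher in Ikzf1 KO than in Ikzf3 KO cells. Fads3 passed the filter only through S15 and the DKO libraries, so its call here too is not independent of that filter. Acsl4 loads arachidonate onto CoA, and Mbtps1 and Mbtps2 are the proteases that cut SREBP in the Golgi.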

How the data were processed

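Per the labels' protocols, polyadenylated RNA of splenic NK cells was made into stranded libraries with the NEBNext Ultra II Directional kit and sequenced as single ends of 75 bp on a NextSeq. STAR, featureCounts, limma 3.34.9 and the build mm10 are named, with no settings, in the submitters' processing notes. The deposited file holds RPKM values that the authors computed for 11736 genes, without counts. Column names give the genotype and a library number. They were assigned to cultured groups because only these have matching sizes, and 6 directly sorted samples of the 21 were not analysed here.

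Genes with RPKM of at least 1 in at least 3 libraries (10032) were fitted as log2(RPKM + 0.5) with limma 3.58.1 in R 4.3.3. The fit had a mean for each of the 4 groups over 15 libraries, a variance trend, robust moderation, 11 residual degrees of freedom and 2-sided tests adjusted by Benjamini-Hochberg over all genes. Fold changes of low genes are understated on this scale. Depth was recovered from RPKM times GENCODE M21 exon length (96.2% of genes whole). Promoter windows came from RefSeq. The rule for named genes gave values per library for called members, Srebf1, Insig1 and Insig2, the other members by range and count, and up to 4 called genes per comparison of the further list, smallest adjusted p first. Values printed beyond that (other members by library, and Ggps1) were chosen after they were seen. Some genes of the further list are counted but not reported here by name. The members and lists were chosen with earlier results of these data known. The fit was tested on simulated data. Alternatives were other pseudocounts, no filter, median-ratio scaling, only the groups compared, and libraries left out singly or in sets.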

Additional observations from a re-analysis of the deposited data

Results flagged for a closer look

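Within a group of 4 libraries, a value was picked out when its gap to the nearest other library exceeded, as a share of the group's range, Dixon's 95% critical value. This happened for 19 of 102 groups of members (18.6%), where chance gives about 1 in 20, and the genes are not independent of each other. The rule was run on members only, so no share of all genes stands beside it. Library S15 of the Ikzf1 KO group was the one picked out in 17 cases, and always the highest. Over all genes kept, S15 was the highest of its group for 33.2% and the lowest for 32.4%. In RPKM it read 39.5 for Insig1, 60.4 for Hmgcs1, 16.1 for Mvk, 14.9 for Pmvk, 47.3 for Mvd, 18.8 for Fdft1, 28.8 for Sqle, 14.2 for Lss and 68.6 for Cyp51. It read 22 for Msmo1, 7.14 for Hsd17b7, 24.3 for Sc5d, 14.6 for Dhcr7, 46.1 for Elovl1, 16.7 for Elovl6, 23.8 for Fads1 and 88.3 for Fads2. The other cases were Srebf1 in Ikzf3 KO library S4, the lowest at 29 RPKM, and Acss2 in Cre only library S18, the highest at 4.73 RPKM.

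By the limma test of the difference itself, a departure from additivity was called for 3 members (9.09% of the 33, against 6.55% of all genes). It was -5.16 for Scd1, -1.06 for Abcg1 and 1.35 for Elovl6 on the log2 scale. The call of Scd1 held under all 24 alternatives, while those of Abcg1 and Elovl6 were each lost under 11.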

How the results depend on the processing

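The 18 calls of a member in a comparison were repeated under 24 alternatives each, 432 checks. Of these 327 kept the call, 105 lost it and 0 changed sign. The calls of Abcg1 in DKO against Ikzf1 KO and in Ikzf1 KO against Ikzf3 KO cells, and of Scd1 in the departure from additivity, held under all 24. Median-ratio scaling changed no count. With 1 library left out, the members called ran from 1 to 5 in Ikzf1 KO against Cre only, 0 to 9 in Ikzf3 KO against Cre only, 1 to 4 in DKO against Cre only, 2 to 4 in DKO against Ikzf1 KO, 2 to 7 in DKO against Ikzf3 KO, 1 to 8 in Ikzf1 KO against Ikzf3 KO cells and 1 to 3 in the departure from additivity. For Ikzf3 KO against Cre only cells the count of 3 fell to 0 by limma without any of S3, S4 or S16 to S19 and to 1 without S12, S13 or S14, and it was 9 without S1 (4 to 8 had an unadjusted p below 0.05 where 0 were called). For Ikzf1 KO against Ikzf3 KO cells the count of 2 became 8 without S1, 6 without S2, S5 or S15, and 1 without S3, S4, S12, S13 or S14. DKO against Cre only cells gave 4 without S7. Ikzf1 KO against Cre only cells gave 4 without S5, 5 without S15 and 2 without S7. DKO against Ikzf3 KO cells gave 2 without S5 and 3 without S3 or S6, and the departure gave 1 without S6, S12, S13, S14 or S16.

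Without S3 and S4 the counts were 4 in Ikzf1 KO (1698 of all genes, against 634 with all libraries), 0 in Ikzf3 KO (2 at an unadjusted limma p below 0.05) and 5 in DKO against Cre only cells (3642 of all genes, against 1872), 5 in DKO against Ikzf1 KO (2125, against 750), 1 in Ikzf1 KO against Ikzf3 KO cells and 1 for the departure. Without S16 and S17 they were 0 in Ikzf1 KO (13 at an unadjusted limma p below 0.05) and 0 in Ikzf3 KO (9), each against Cre only cells. Without S18 and S19 they were 0 in Ikzf3 KO (5) and 0 in DKO against Cre only cells (3). A pseudocount of 1 gave 2 in Ikzf1 KO against Cre only cells. Only the groups compared gave 8 in Ikzf1 KO (2009 of all genes), 1 in Ikzf3 KO (448) and 2 in DKO against Cre only cells (2245) and 0 in DKO against Ikzf3 KO cells (8 at an unadjusted limma p below 0.05). Without S5, S15, S18 and S19 the counts were 7 in Ikzf1 KO and 2 in DKO against Cre only, 8 in DKO against Ikzf1 KO and 13 in Ikzf1 KO against Ikzf3 KO cells, and the members' median became 0.00 in DKO against Cre only and 0.38 in DKO against Ikzf1 KO cells. Apart from the smaller sets of libraries, the cause of these changes was not tested. Of 168 checks of the members' median, 166 moved by less than the spread between libraries. That limit was the SD within groups of the library means over the members, and S5 and S15 themselves widen it. Against Cre only cells the medians were only -0.42 in Ikzf1 KO, -0.13 in Ikzf3 KO and -0.49 in DKO cells. A large shift relative to these can pass the limit, so the count does not show that the medians are stable. No paired analysis was possible because the columns carry library numbers and not the labels' replicate numbers. Depth limits weakly read genes such as Abca1, and single low values such as that of Scd1 in S5 (0.153 RPKM), which lies below the pseudocount of 0.5.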
